A study of Homo sapiens with 4 samples.

Results

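Intergenic loops, DNA loops whose anchors both lie outside genes, were examined in RNA polymerase II (RNAPII) HiChIP-seq data of HepG2 cells. A loop was taken as intergenic where neither anchor overlapped the body of a protein-coding or lncRNA gene of GENCODE 44 or the 1 kb on either side of it. This rule gave 7907 of the 66417 loops in mock-treated cells (11.9%, 95% Wilson interval 11.7 to 12.2%) and 2607 of the 18778 loops in PDS-treated cells (13.9%, 13.4 to 14.4%), or 9501 pairs of anchors over both lists. Intergenic sequence by the same rule made up 39.3% of the sequenced genome. The rule leaves room for other gene types, and 9.29% of the intergenic anchors overlapped such a gene, mostly a pseudogene (7.30%) and in 72 cases an immunoglobulin or T cell receptor segment. Loops at the T cell receptor alpha locus on chromosome 14 numbered 34 in mock-treated and 14 in PDS-treated cells.

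HiChIP-seq joins proximity ligation of chromatin with immunoprecipitation, here of POLR2A, the largest subunit of RNAPII, and each paired-end tag (PET) reports a pair of fragments that lay near one another in the nucleus. HepG2 is a hepatocellular carcinoma line with an abnormal karyotype, in which several chromosomes have extra copies. The cells received water (mock) or 20 µM pyridostatin (PDS), a small molecule that binds G-quadruplex (G4) structures, for 24 h, in 2 biological replicates per condition. The authors deposited 1 combined list per condition with whole-number PET counts and no loop under 3 PETs, and no spread between replicates could be computed. A loop that is in 1 list only was not listed with the same anchors in the other condition, and its PETs there are not known. Whether the minimum of 3 PETs was the sole filter is not given in the sources used here. All intervals given here cover counting error only, and no p-value is given between conditions. Of 12 genes that mark hepatocytes or HepG2, 11 had a mock loop at a start site, 57 loops in all, against 10 loops at 6 blood genes, 9 at 4 neuronal genes and 7 at 4 muscle genes. The defining blood gene PTPRC had none.

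RNAPII is known to transcribe far more than annotated genes. Distal enhancers recruit it and produce short-lived enhancer RNAs, and enhancers of one region often contact one another as well as the promoter they act on. G4 structures are 4-stranded folds of G-rich DNA. Long gene-free stretches hold some distal enhancers, much repetitive DNA and, near centromeres, satellite arrays in which a short unit recurs many times.

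The first sequences shown are the starts of anchors of the strongest intergenic loops, chosen to show the repeated sequence at the loops with most PETs beside a stretch of single-copy sequence. All are on the plus strand of GRCh38, and capitals mark bases that belong to a 31-base sequence found more than once in the genome. The chromosome 16 pair (chr16:46385643-46385789 and chr16:46397703-46397849) belongs to a loop of 2183 mock and 1753 PDS PETs, the chromosome Y anchor (chrY:56726450-56726539) to a loop of 39 and 44 PETs, and the LRFN5 anchor (chr14:43047883-43048029) to a loop of 20 and 12 PETs.
chromosome 16, anchor 1: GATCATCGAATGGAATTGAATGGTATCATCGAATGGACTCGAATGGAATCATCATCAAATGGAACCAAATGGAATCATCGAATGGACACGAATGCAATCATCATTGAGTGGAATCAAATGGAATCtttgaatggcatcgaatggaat
chromosome 16, anchor 2: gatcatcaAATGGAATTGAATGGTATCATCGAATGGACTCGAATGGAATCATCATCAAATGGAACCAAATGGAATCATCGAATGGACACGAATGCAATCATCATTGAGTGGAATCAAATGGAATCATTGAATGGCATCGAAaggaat
chromosome Y, anchor 1: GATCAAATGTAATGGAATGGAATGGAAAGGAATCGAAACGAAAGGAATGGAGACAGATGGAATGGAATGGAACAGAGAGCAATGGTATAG
LRFN5 desert, anchor 1: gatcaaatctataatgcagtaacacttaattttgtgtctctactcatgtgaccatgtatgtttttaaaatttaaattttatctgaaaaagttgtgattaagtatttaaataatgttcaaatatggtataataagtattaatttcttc
Each anchor begins at GATC, the site that MboI cuts. The 147 bases of the first chromosome 16 anchor recurred in its partner anchor at 98.0% identity, the 90 bases of the chromosome Y anchor at 100%, and the 147 bases of the LRFN5 anchor at no more than 46.9% on either strand. Multi-copy bases are not limited to the strongest loops, since the first 147 bases of the partner of this LRFN5 anchor were all multi-copy, and high identity is not shared by all of them, with 61.4% for the strongest pair on chromosome 17.

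The next sequences are predicted G4 motifs, in which 4 runs of 3 or more G are set apart by 1 to 7 bases, in anchors of loops described in the text. Capitals mark the motif, and each sequence is read 5′ to 3′ on the strand that holds the G runs. The count of 0 for the HSP90B1 loop means that it was not in the mock list. The positions on GRCh38 are chr14:43094569-43094619 (plus strand) for the LRFN5 loop, chr20:21002552-21002607 (minus) for the KIZ loop and chr12:103892844-103892897 (minus) for the HSP90B1 loop.
LRFN5 loop, 20 mock and 12 PDS PETs: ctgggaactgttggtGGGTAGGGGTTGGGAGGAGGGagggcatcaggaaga
KIZ loop, 20 mock and 5 PDS PETs: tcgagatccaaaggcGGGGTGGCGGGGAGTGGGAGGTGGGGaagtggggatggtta
HSP90B1 loop, 0 mock and 7 PDS PETs: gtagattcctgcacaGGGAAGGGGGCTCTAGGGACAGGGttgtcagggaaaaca
The letters GATAGCAT follow the G-rich tract near the end of many LINE-1 retrotransposons. They followed 489 of the 12759 motifs in intergenic anchors (3.83%, 3.51 to 4.18%), 0.509% of the motifs in anchors with a protein-coding start site and 3.07% (2.91 to 3.24%) of those in other gene anchors. The intergenic share thus lay above that of gene anchors without a start site, with intervals apart, and farther above that of anchors with a start site.

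The last sequence shows the letters CAAAGTCCA, a form of the site read by the hepatocyte factor HNF4A, in capitals, in an anchor of a loop nearest to FOXA2, which encodes a forkhead factor of liver. It is on the plus strand of GRCh38, at chr20:22304757-22304805.
FOXA2 loop, 6 mock and 8 PDS PETs: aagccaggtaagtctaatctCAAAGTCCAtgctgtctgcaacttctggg

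Intergenic loops were shorter than other loops. From midpoint to midpoint of the anchors, their median length was 12325.5 bp before and 12905.5 bp after PDS treatment, against 18470.5 and 18077 bp for all other loops. Loops of 5 to 10 kb made up 37.5% of the mock intergenic loops and 24.5% of the other mock loops. Most stayed within 1 gene-free stretch. No protein-coding or lncRNA gene lay between the anchors of 91.7% of the mock loops (91.0 to 92.3%), and a protein-coding gene lay between them in 4.68%. The nearest protein-coding gene was a median of 35492 bp away in mock-treated and 45987 bp in PDS-treated cells. The 13279 anchors had a median width of 5835 bp, and they lay a median of 51596 bp from the nearest protein-coding start site.

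Fewer intergenic loops were listed after PDS treatment, and the reduction was smaller than among other loops. The PDS/mock ratio of loop numbers was 0.330 (0.315 to 0.345) for intergenic loops and 0.276 (0.271 to 0.281) for all other loops. Their summed PETs went from 32370 to 11225, a ratio of 0.347 against 0.250. In all, 1013 intergenic loops were in both lists, which is 12.8% of the mock loops (12.1 to 13.6%) beside 11% of all mock loops, and 38.9% of the PDS loops. Of these shared loops, 508 had fewer PETs after PDS treatment (50.1%, 47.1 to 53.2%, beside 55.3% of all shared loops), 334 had equal counts and 171 had more (16.9%, 14.7 to 19.3%, beside 14.5%). Shared loops with 7 to 19 summed PETs were also split by a binomial model that takes account of the minimum of 3 PETs. It put the PDS count at 0.546 of the mock count (0.506 to 0.589, n = 735) for intergenic loops and 0.485 (0.471 to 0.499) for other loops. The libraries' depths are not known from these lists, so the ratios compare groups of loops with one another and are not absolute losses.

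Just inside and just outside the 1 kb margin of the rule the loops differed little. Loops whose nearer anchor was 1 to 2 kb from a gene numbered 309 in mock-treated and 81 in PDS-treated cells, with a ratio of 0.262 (0.205 to 0.335). Loops just outside, with an anchor within 1 kb of a gene and none overlapping it, numbered 322 and 97, with a ratio of 0.301 (0.240 to 0.378).

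**Figure D1:**
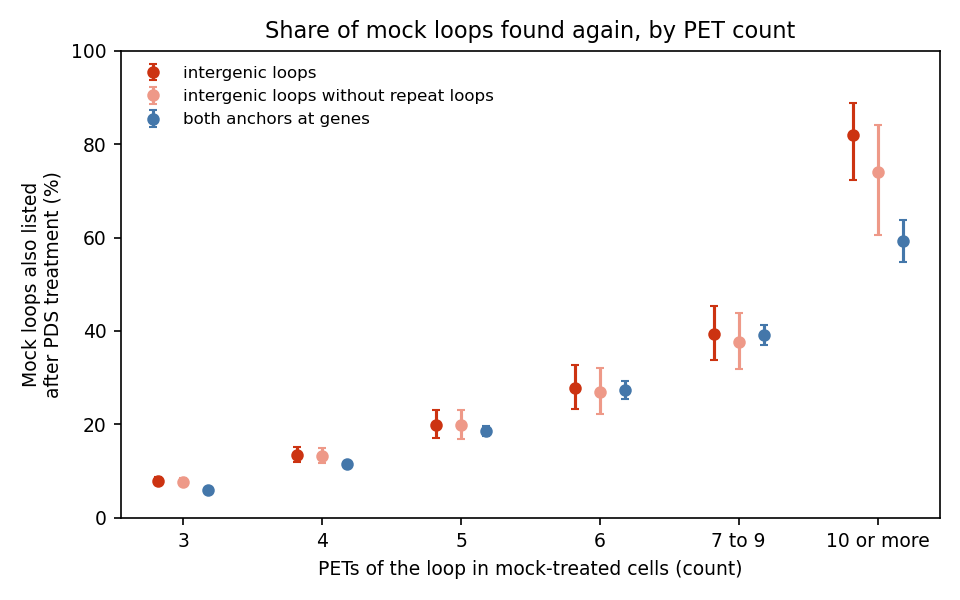
Share of mock loops that were also listed after PDS treatment (y axis, %) by the PETs of the loop in mock-treated cells (x axis, count), with 95% Wilson intervals. At 3 PETs the intergenic point, 7.85% (7.12 to 8.64%), lies above that of loops with both anchors at genes, 6.01% (5.74 to 6.30%). From 4 to 9 PETs the intervals overlap, with 39.4% against 39.0% at 7 to 9 PETs. At 10 or more PETs the intergenic point is again above, with intervals that overlap once repeat loops are left out.

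The share found again grew with the count. As plotted by PET count, 7.85% of the intergenic loops with 3 mock PETs were listed after PDS treatment, 13.4% of those with 4 and 39.4% of those with 7 to 9. Loops with both anchors at genes gave 6.01%, 11.5% and 39.0%, with intervals apart from those of intergenic loops at 3 PETs and overlapping at 4 and at 7 to 9. At 10 or more PETs the shares were 81.9% against 59.3%, and without the repeat loops described next 74.0% (60.4 to 84.1%) against 58.5% (53.9 to 63.0%), with overlapping intervals.

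The strongest intergenic loops lay in repetitive sequence. A loop was termed a repeat loop where over 50% of the sampled 31-base sequences of an anchor occurred more than once in the genome, a limit chosen after the data had been seen. Repeat loops numbered 318 in mock-treated and 133 in PDS-treated cells, 4.02% and 5.10% of the intergenic loops, but held 12.6% and 24.4% of their PETs. How reads that fit many places were assigned was not tested, so a PET count there cannot be tied to 1 pair of positions.

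A single block on chromosome 16, chr16:46382209-46403244, next to the centromere and 175346 bp from SHCBP1, a gene of cell division, stood above all others. Its 4 anchors formed 6 loops, all in both lists, with 2484 PETs in mock-treated and 2043 in PDS-treated cells (ratio 0.822, 0.776 to 0.872). The 6 loops counted 2183, 133, 74, 44, 32 and 18 PETs in mock-treated cells, and the first of them kept 1753 after PDS treatment, the second 129 and the third 87. The block held 7.67% of the mock and 18.2% of the PDS PETs of all intergenic loops. The other repeat loops, 312 and 127 in number, went from 1582 to 697 PETs (0.441, 0.403 to 0.482).

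Further repeat loops lay in other centromeric or heterochromatic places. Near RPIA on chromosome 2 a loop had 43 mock and 28 PDS PETs, and on chromosome Y, with VAMP7 as the nearest gene, a loop had 39 and 44. In the centromere of chromosome 17, beyond WSB1, loops had 34 and 29 and 24 and 13 PETs, and on chromosome 13 near TUBA3C a loop had 23 and 14. The anchors on chromosomes 13 and 17 repeated best at 171 bases, the length of the alpha satellite unit of centromeres, those on chromosome Y at 15 bases and those on chromosome 5 at 5 bases. Of the 20 places with at least 5 repeat loops over both lists, 0 had a higher PET sum after PDS treatment, and on chromosome Y the sums were equal, 49 and 49.

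**Figure D2:**
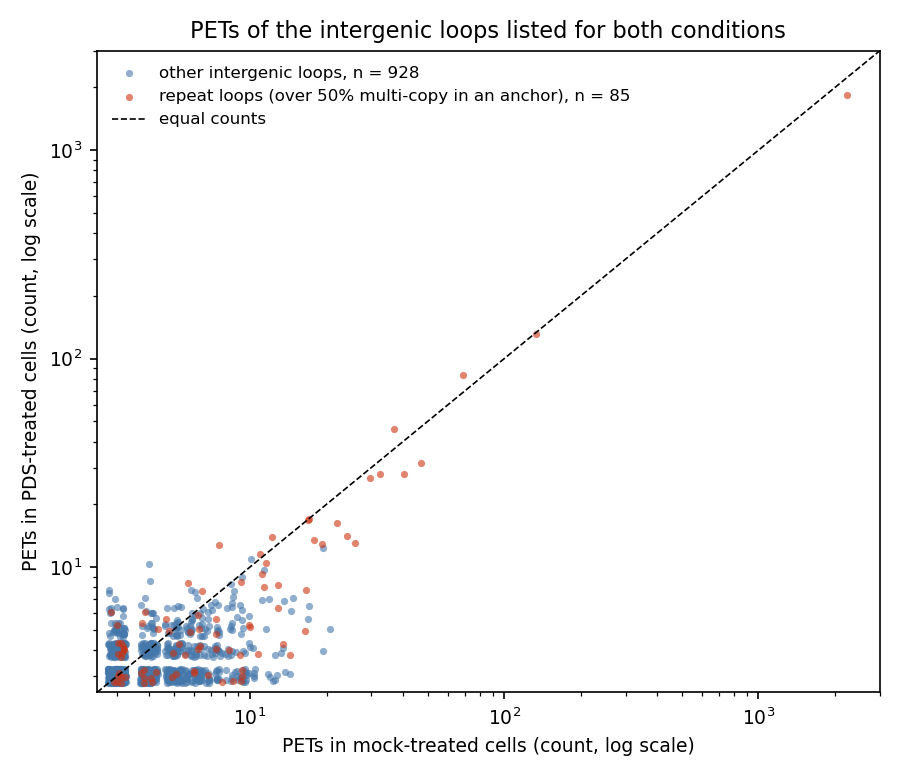
PETs of the 1013 intergenic loops listed for both conditions, mock on the x axis and PDS on the y axis (counts, log scales), with small random shifts so that equal counts can be seen and a dashed line of equal counts. The 85 repeat loops include every loop above 20 mock PETs and lie near the line at high counts, while most of the 928 other loops with 10 or more mock PETs lie under it.

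Away from repeats the strongest loops had lower counts in the PDS list. Of the 50 intergenic loops with at least 10 mock PETs that were not repeat loops, 37 were listed after PDS treatment, and their PETs went from 458 to 177 (0.386, 0.325 to 0.460), with 36 lower and 1 higher. Of the 33 such repeat loops, 31 were listed again, with 2916 and 2349 PETs (0.806, 0.763 to 0.851). Both sets were picked by a high mock count, so a lower count in the other list is favoured by that choice, and a change particular to them is not shown. Without repeat loops, the ratio of loop numbers for intergenic loops was 0.326 and that of PETs 0.2998 (0.293 to 0.307), against 0.276 and 0.250 for other loops.

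Among the loops outside repeats, the strongest joined chr14:43047883-43063385 and chr14:43067808-43096088, 1143333 bp from LRFN5, a gene for a synaptic adhesion protein, with 20 mock and 12 PDS PETs. A loop near KIZ, which encodes a centrosomal protein, also had 20 PETs in mock-treated cells and had 5 after PDS treatment (chr20:20996607-21033739 and chr20:21034733-21057243). It carried 10 predicted G4 motifs over both anchors, which were far wider than the median anchor of 5835 bp. A loop between JPH4, a junctophilin gene, and DHRS2, a gene for a short-chain dehydrogenase, had 18 and 4. The loops nearest to SNX5, a sorting nexin gene, and SPATS2L had 18 and 6 and 17 and 6, and those near MACROD2, MED13L, a Mediator subunit gene, and BCAS1 had 15 and 6, 14 and 3, and 14 and 4.

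Among the loops outside repeats with most PETs in the PDS list, some nearly held their mock count or exceeded it. The loop nearest to STXBP6, which encodes a SNARE-binding protein, had 10 mock and 11 PDS PETs, that nearest to EAPP 12 and 10, and that nearest to TOX2, a gene for an HMG-box protein, 4 and 10. Of the 1594 intergenic loops in the PDS list only, 1250 had 3 PETs, and the highest count was 7, in 3 loops. They were nearest to HSP90B1, the gene for an endoplasmic reticulum chaperone, to TBX3, a T-box factor gene, and to FBXO33. The anchor pair near HSP90B1 held 16 predicted G4 motifs, all in 1 anchor. In the mock list only, the highest counts were 12, in a loop near NOVA1, a neuronal RNA-binding protein gene, and in one near DOK6.

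**Figure D3:**
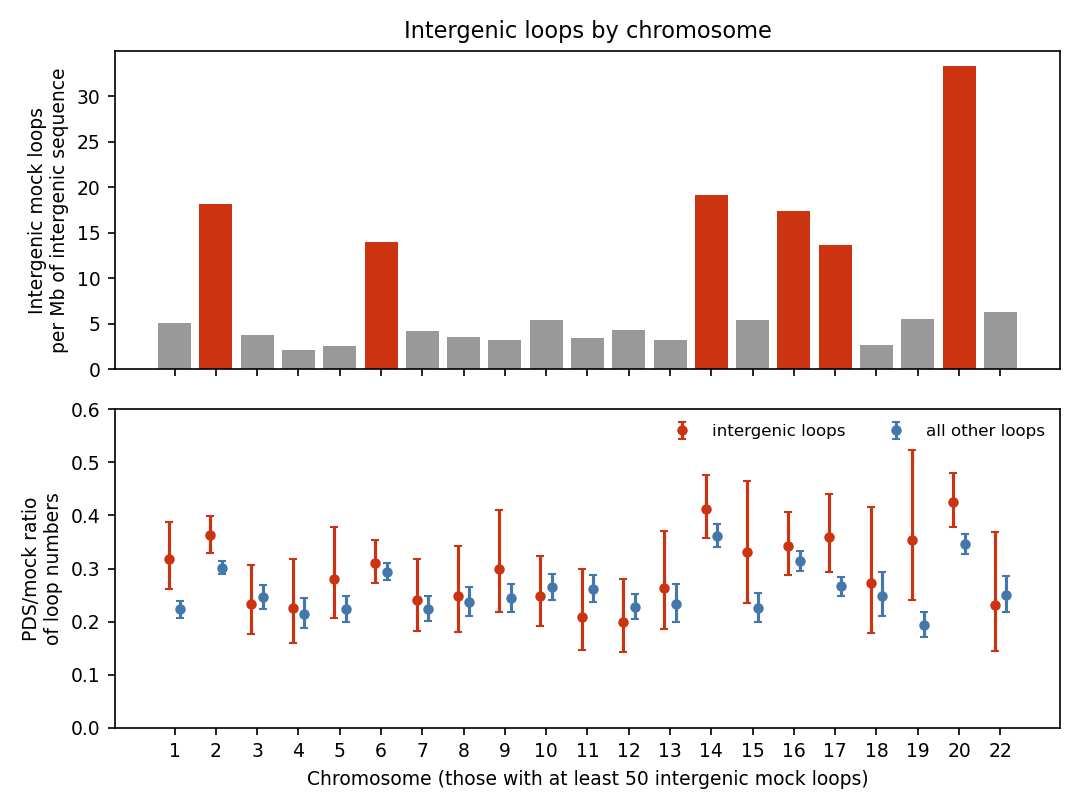
Intergenic mock loops per Mb of intergenic sequence (top) and PDS/mock ratio of loop numbers (bottom, points with 95% intervals) for the 21 chromosomes with at least 50 intergenic mock loops, with intergenic loops in red and all other loops in blue in the bottom plot. Chromosomes 2, 6, 14, 16, 17 and 20 (red bars) stand above the rest in density, and on 16 of the 21 the ratio of intergenic loops is above that of other loops.

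Intergenic loops were unevenly spread over chromosomes. Chromosomes 2, 6, 14, 16, 17 and 20, grouped after the values had been seen, held 23.6% of the intergenic sequence but 62.7% of the mock and 70.0% of the PDS intergenic loops. Other loops shared the pattern to a smaller degree, with 54.2% and 61.2% there. Chromosome 20 had 33.3 intergenic mock loops per Mb of intergenic sequence, chromosome 14 had 19.2 and chromosome 2, with the largest number of loops (1591 mock and 577 PDS), had 18.1.

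The ratio also depended on the chromosome. On the 6 chromosomes it was 0.368 (0.349 to 0.388) for intergenic and 0.311 (0.304 to 0.318) for other loops. On the other chromosomes it was 0.265 (0.245 to 0.287) and 0.234 (0.227 to 0.240), and without repeat loops 0.255 (0.235 to 0.277). Intergenic loops thus had the higher ratio in both sets of chromosomes, with overlapping intervals on the others once repeat loops were left out. The share of mock loops listed again was 15.8% against 13.6% on the 6 chromosomes and 7.77% (6.86 to 8.79%) against 7.36% on the others, where without repeat loops the order was turned, 6.87% (5.998 to 7.87%) against 7.31%. The split of shared PETs was 0.569 (0.523 to 0.619) against 0.494 on the 6 chromosomes, and 0.451 (0.373 to 0.542) against 0.458 on the others, where the order was turned and the intervals overlapped. Had each chromosome had the ratio of its other loops, the ratio of intergenic loops would have been 0.284 in place of 0.330. Among the 21 chromosomes plotted, intergenic loops ranged from 0.200 on chromosome 12 to 0.426 on chromosome 20, and their interval lay wholly above that of other loops on 5 of them, chromosomes 1, 2, 17, 19 and 20. What sets these chromosomes apart was not tested.

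**Figure D4:**
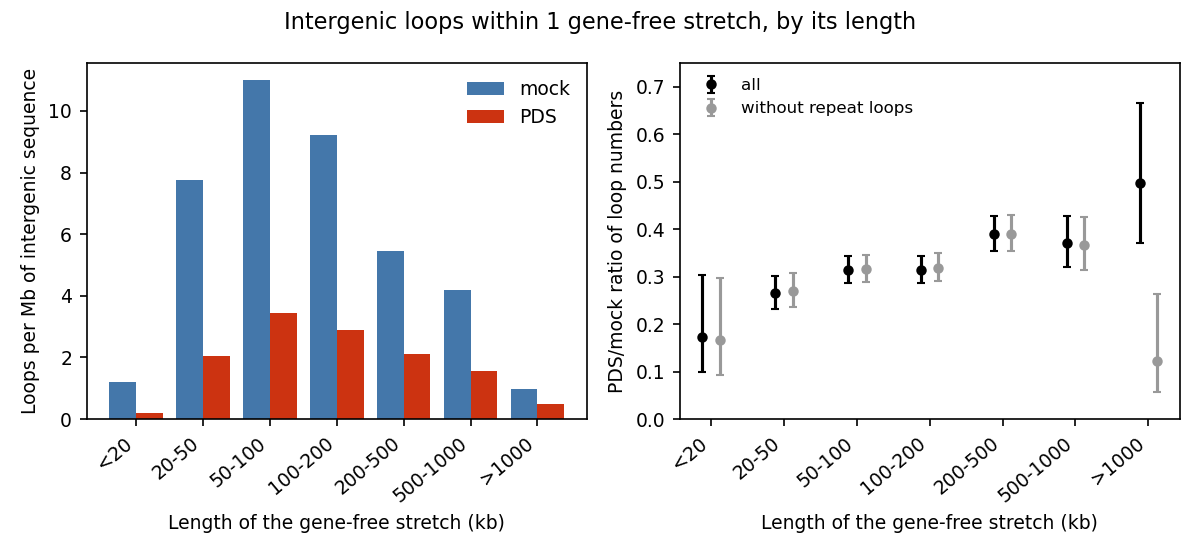
Intergenic loops with both anchors in 1 gene-free stretch, by the length of that stretch (x axes, kb). Left, loops per Mb of intergenic sequence, which peak at 50 to 100 kb in both conditions, and right, the PDS/mock ratio of loop numbers with 95% intervals, which goes from 0.173 under 20 kb to 0.389 at 200 to 500 kb and over 1000 kb falls to 0.123 once repeat loops are left out.

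Density and ratio were also compared by the length of the gene-free stretch. Over all chromosomes, mock loops peaked at 11.005 per Mb in stretches of 50 to 100 kb, with 1.21 per Mb in stretches under 20 kb and 0.960 in those over 1 Mb. This order depended on the chromosome, with 16.4 mock loops per Mb in stretches under 100 kb and 19.04 in those of 100 to 1000 kb on the 6 chromosomes, and 5.19 and 2.499 on the others. Short stretches also have little room for a pair of anchors at the distances found here. The ratio of loop numbers was 0.173 (0.0987 to 0.303) under 20 kb, 0.265 (0.232 to 0.302) from 20 to 50 kb, 0.314 (0.287 to 0.344) from 50 to 100 kb and 0.389 (0.353 to 0.428) from 200 to 500 kb. Over 1 Mb it was 0.496 with repeat loops and 0.123 (0.0571 to 0.264) without them, as plotted by stretch length. Within each set of chromosomes the ratio was higher in stretches of 100 to 1000 kb than in those under 100 kb. On the 6 chromosomes it was 0.388 (0.362 to 0.416) against 0.332 (0.301 to 0.366), with intervals that met only at their ends. On the others it was 0.263 (0.233 to 0.298) against 0.251 (0.224 to 0.282), with intervals that largely overlapped. A difference by stretch length was not tested.

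Loops that shared an anchor formed 4459 clusters. Most, 3008 (67.5%), were a single pair of anchors, and 140 clusters with at least 10 loops held 28.4% of all intergenic loops. Of the 94 clusters with at least 10 mock loops, 92 also had PDS loops and 1 had more PDS than mock loops. Their ratio of loop numbers had a median of 0.333 and ranged from 0 to 1.13.

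The largest cluster surrounded LRFN5 on chromosome 14 (chr14:41217892-43343291), where the gene is the sole protein-coding gene in 2125 kb. It had 85 anchors, 120 mock and 56 PDS loops, and its PETs went from 501 to 231 (ratio 0.461, 0.395 to 0.539). Of its 31 shared loops, 14 were lower after PDS treatment, 7 equal and 10 higher. Loops beyond the end of the gene made up 102 of the mock and 49 of the PDS loops, and their PETs went from 434 to 201. Before the start of the gene the sum went from 60 to 30 PETs, and the 2 loops that passed across the gene, with 7 PETs, were not listed after PDS treatment. The anchor with most intergenic loops in mock-treated cells, chr14:43103848-43116990 with 13 loops, was here, as was that of PDS-treated cells, chr14:43067808-43096088 with 11. These neighbouring anchors were joined by a loop of 13 mock and 7 PDS PETs. Close by, toward FSCB, a loop had 9 PETs in both conditions, and a loop at the start of the cluster had 4 mock and 8 PDS PETs.

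**Figure D5:**
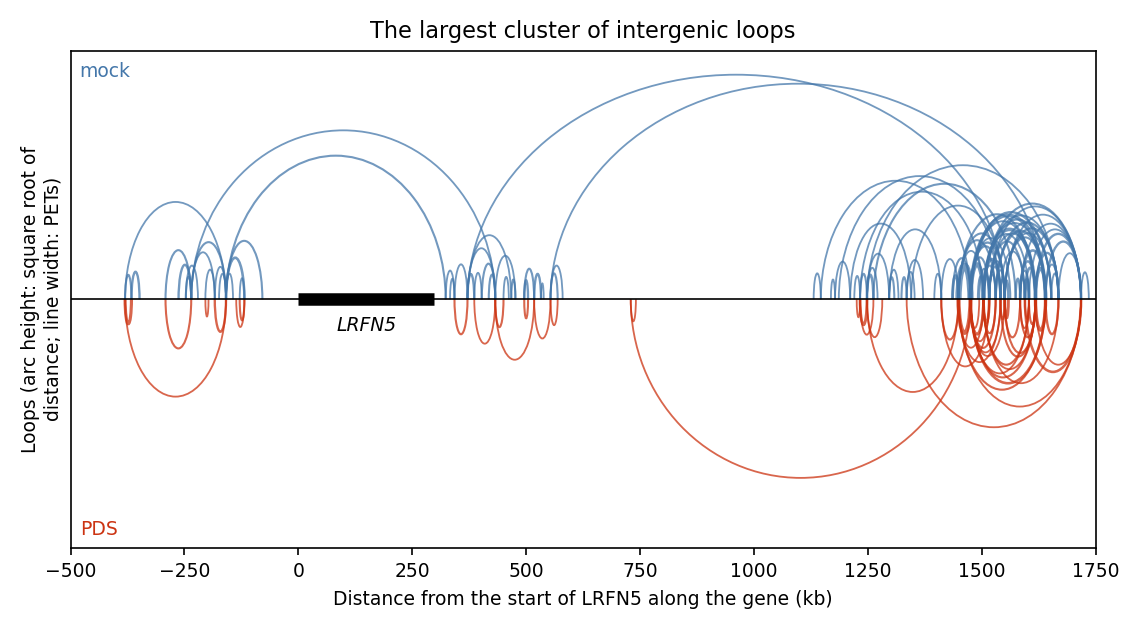
Loops of the largest cluster, by distance from the start of LRFN5 along the gene (x axis, kb), with mock loops above the line and PDS loops under it. Arc height grows with the square root of loop distance and line width with PETs, and both conditions show a dense group of loops more than 1000 kb beyond the start of the gene.

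The next clusters lay nearer to genes with known roles. The cluster between NYAP2 and IRS1, the insulin receptor substrate gene, had 62 mock and 24 PDS loops (PET ratio 0.319, 0.248 to 0.410). Its strongest loops had 9, 8 and 7 mock PETs. That of 8 had 4 PDS PETs, and the others were not listed after PDS treatment. A cluster of 55 and 20 loops reached over BAZ1A, a chromatin remodeller gene, and NFKBIA, which encodes an inhibitor of NF-κB, toward INSM2 (0.303, 0.233 to 0.393). Its loops nearest to NFKBIA had up to 10 and 4 and 7 and 4 PETs, and a further loop of 9 mock PETs was not listed after PDS treatment. A loop nearer to INSM2 had 8 and 7. At BCAS1 and CYP24A1, the vitamin D hydroxylase gene, 53 and 14 loops had a PET ratio of 0.208 (0.153 to 0.282), and all 7 shared loops had fewer or equal PETs after PDS treatment.

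PET ratios varied widely among the 10 largest clusters. The lowest was 0.138 in the cluster around CEBPB, next to PTPN1, which encode a C/EBP factor and a tyrosine phosphatase, with 38 mock and 6 PDS loops. The highest was 0.567 between FERMT1, a kindlin gene, and BMP2, a bone morphogenetic protein gene, with 31 and 17 loops, among them a loop near BMP2 of 5 and 6 PETs. These clusters are both on chromosome 20. The cluster at STXBP6 followed with 38 and 20 loops and a ratio of 0.537. At JPH4 and DHRS2, 41 and 16 loops gave 0.333. The cluster of IL22RA2 and IFNGR1, receptors of interleukin 22 and interferon gamma, had 41 and 14 loops with a ratio of 0.288, and that of KIZ and XRN2, an RNA exonuclease gene, had 32 and 16 with 0.379.

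Hepatocyte genes were present among the nearest genes. In all, 3216 protein-coding genes (16.1%) were the nearest protein-coding gene of an intergenic loop. This held for 16 of 32 hepatocyte transcription factors, 7 of 58 plasma protein genes, 20 of 62 genes of lipid and metabolic enzymes and 11 of 33 stress response genes. These lists were described only, and genes with long gene-free flanks have more room for such loops.

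Among the factors, FOXA2 had the most intergenic loops, 16 in mock-treated and 9 in PDS-treated cells, with 64 and 38 PETs. The loops over 4 mock PETs had 8 mock and 5 PDS PETs and 6 and 8, while those of 5 mock PETs were not listed after PDS treatment. A loop 75572 bp from the gene had 4 and 3 PETs, and a loop 44582 bp from it had 4 and 4. So the loops kept after PDS treatment included some of the strongest, one of which was higher. TBX3 had 7 and 4 loops, and its strongest mock loops of 6 and 5 PETs were not listed after PDS treatment. A loop of 676781.5 bp had 7 PDS PETs and was not in the mock list. CEBPB had 6 and 1 loops with 27 and 4 PETs. PROX1, a homeobox factor gene of liver, had 3 and 2 loops, and HHEX, a homeobox gene of early liver, had 2 and 3, none of these above 4 PETs.

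Among genes of lipids and metabolism, APOB, the apolipoprotein of low-density lipoprotein, had 8 and 4 loops with 33 and 15 PETs. Its strongest mock loop, 2470 bp from the gene, had 7 PETs and was not listed after PDS treatment, while a longer loop from the same anchor had 4 and 5. CPS1, the first enzyme of the urea cycle, had 8 and 3 loops with at most 4 PETs. None of them was shared, beside 12.8% of all intergenic mock loops. PCK1, the enzyme of gluconeogenesis, had 4 and 1, of which the loop of 4 mock PETs had 3 after PDS treatment and the loop of 7 was not listed. AKR1C1, an aldo-keto reductase gene, had 6 loops of 3 to 5 PETs in mock-treated cells and 0 after PDS treatment, and ALDH8A1, an aldehyde dehydrogenase gene, had 3 and 2 with none shared.

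Among stress response genes, MYC, the proto-oncogene, had 7 mock loops of 3 to 5 PETs, of which the loop farthest from the gene had 4 PETs in both conditions and the other 6 were not listed after PDS treatment. IER2, an immediate early gene, had 3 mock loops of 12, 5 and 4 PETs, and the first of these kept 3. KLF6 and KLF4, which encode Krüppel-like factors, had 6 and 2 and 3 and 2 loops, with none shared. Counts of 3 to 5 PETs are near the minimum of the lists, so the absence of single loops is not a measured loss. Of all intergenic mock loops 12.8% were shared, and 7.85% of those with 3 PETs. Having none shared among a few loops therefore sets no gene of these lists apart.

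Predicted G4 motifs were less common in intergenic loops than in all other loops. At least 1 anchor held a motif in 68.3% of mock (67.3 to 69.3%) and 69.9% of PDS intergenic loops, against 76.2% of other mock loops. Motifs numbered 1.42 (mock) and 1.35 (PDS) per 10 kb of anchor, against 2.36 and 2.35 for other loops. By single anchors, the difference lay with start sites. A motif was present in 42.6% of intergenic anchors, in 40.6% of gene anchors without a protein-coding start site and in 66.6% of those with one. Per 10 kb of anchor the motifs numbered 1.41, 1.47 and 4.05 in the same order. Which of the first 2 groups was higher thus depended on the measure. Intergenic loops without a motif had a ratio of loop numbers of 0.313 (0.289 to 0.339), those with a motif in 1 anchor 0.336 (0.314 to 0.358) and those with motifs in both 0.341 (0.312 to 0.373). The split of shared PETs ran the other way, 0.596 (0.520 to 0.681), 0.541 (0.478 to 0.610) and 0.503 (0.433 to 0.579). The intervals overlapped in both series, and a difference by motif was not tested.

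Intergenic anchors were richer in GC and in G4 motifs than intergenic sequence at large. In the central 3000 bp of the 11549 anchors that were wide enough, median GC was 42.8%, against 39.1% over 374986 windows of the same length tiled over intergenic sequence. A G4 motif was present in 26.1% of these anchor windows and in 20.0% of all windows. Within classes of GC the difference was small and changed sign. Shares of anchors and of all windows were 9.15% (7.71 to 10.8%) and 10.2% under 36% GC and 13.3% (11.99 to 14.7%) and 15.02% at 36 to 40%. They were 20.5% (19.1 to 22.0%) and 18.5% at 40 to 44%, 30.8% (29.3 to 32.4%) and 31.03% at 44 to 50%, and 67.0% (64.4 to 69.5%) and 68.8% over 50%. Other letters searched on both strands were CAAAGTCCA, read by HNF4A, in 4.73% of anchors (4.36 to 5.13%) and 3.73% of all windows, and TGANTCA, read by AP-1, in 64.0% (63.1 to 64.9%) and 59.6%. The letters TGTTTAC of forkhead factors were in 35.5% and 37.2%, and AGGGGGCGC of CTCF in 0.727% and 0.389%. These shares also varied with GC. For TGANTCA, anchors had 63.0% against 64.2% of all windows under 36% GC, 66.1% against 55.0% at 36 to 40%, 66.4% against 61.4% at 40 to 44%, 63.6% against 60.8% at 44 to 50% and 56.7% against 53.7% over 50%. For TGTTTAC, the pairs in the same order were 45.96% and 46.7%, 41.1% and 35.97%, 36.9% and 36.7%, 31.2% and 30.7%, and 23.4% and 21.4%. For AGGGGGCGC they were 0% and 0.0524%, 0.169% and 0.117%, 0.359% and 0.297%, 0.797% and 0.751%, and 3.18% and 2.92%. The intervals of mock and PDS anchors overlapped for each of these motifs, with 4.77% and 4.80% for CAAAGTCCA. A match of letters is not a bound site.

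Intergenic anchors were seldom linked to promoters by a further loop after PDS treatment. An anchor of 26.8% (25.8 to 27.8%) of the mock intergenic loops had another mock loop to a protein-coding start site, against 8.44% (7.43 to 9.57%) in the PDS list, which has fewer loops of any kind. Mock loops with such a link were listed again after PDS treatment in 15.7% of cases (14.2 to 17.3%) and those without in 11.8% (10.96 to 12.6%). Linked loops were also stronger, with 52.2% at 3 PETs against 63.7%. Their split of shared PETs was 0.496 (0.435 to 0.563), against 0.577 (0.524 to 0.635) for loops without a link.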

How the data were processed

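The authors prepared POLR2A HiChIP libraries of mock- and PDS-treated HepG2 cells with MboI, and mapped 100 bp read pairs to GRCh38 with HiC-Pro 3.1.0. They deposited 1 list of loops per condition, with raw PET counts per loop. The tool that set the anchors and the way the 2 replicates were combined are not given in the sources used here. The libraries' depths are not known. The listed loops hold 254647 mock and 67001 PDS PETs, sums that depend on the minimum of 3.

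Genes came from GENCODE 44. Loops on contigs, which have no annotated genes, were left out. Distances are between anchor midpoints. A shared loop has identical anchors in both lists. The interval of a PDS/mock ratio was derived from the share of PDS loops or PETs in the sum of both conditions (Wilson, 95%), and medians have intervals from binomial ranks. Repeats were found by 31-base sequences sampled every 20 bp and counted over the genome. Motifs were read from the reference on both strands.

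The members, gene lists and tests were chosen with earlier results of these data known. Nearest genes are the nearest protein-coding genes, without lncRNA genes. Named genes are those nearest to each list's 10 strongest loops and to the 10 largest clusters, and list genes with at least 5 intergenic loops over both lists. Loops named outside repeats or in 1 list only, other genes at the edges of or inside clusters, and genes of the repeat places were named after their values had been seen. The statistics were tested on simulated data. Alternatives were other PET minimums, gene margins, gene types, distances, motif spacers and anchor matches, and leaving out repeats or chromosomes. The software was scipy 1.17.1, numpy 2.4.6, pandas 2.3.3 and Python 3.11.15, with pysam 0.24.0, numba 0.67.0, samtools 1.23.1 and matplotlib 3.10.9.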

Additional observations from a re-analysis of the deposited data

Results flagged for a closer look

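Loops on contigs, which entered no comparison because no genes are annotated there, numbered 75 before and 55 after PDS treatment, with a loop number ratio of 0.733 (0.519 to 1.04), above that of the intergenic loops placed on chromosomes. Their PETs summed to 372 and 264 (0.710, 0.606 to 0.831) on 20 contigs, and 30 of the 75 mock loops were listed again. Of the 130 entries in both lists, 73 had an anchor in which over 50% of the sampled 31-base sequences occurred more than once in the genome. The part of multi-copy sequence in this ratio was not tested.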

How the results depend on the processing

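Of 96 values under an alternative setting, 45 moved by less than their interval (or, for counts, less than 1.5 times) and 51 moved by more. Loop number ratio, PET ratio and the share listed again stayed above those of other loops under all 12 alternatives run for each. The split of shared PETs did so in 3 of 4, the exception being the set without chromosomes 2, 6, 14, 16, 17 and 20. Without these chromosomes the share listed again was 7.77% (6.86 to 8.79%) against 7.36%, a value inside that interval. Leaving out repeat loops as well, which was not among the alternatives, turned the order, 6.87% (5.998 to 7.87%) against 7.31%. The 57 alternatives listed at the outset included 2 that need values per replicate and were not run, leaving out each replicate in turn and the replicate number as a block. A further 17, for repeat loops, contigs and the 6 chromosomes, were added after seeing the data. No paired analysis was possible because each list combines both replicates of a condition.

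With at least 4 PETs, the intergenic share of the PDS list was 14.4%, the loop number ratio 0.251, the PET ratio 0.320, the share listed again 9.89%, the mock median distance 11569.5 bp and the clusters 2252. With at least 5 PETs the intergenic shares were 11.2% (mock) and 14.9% (PDS), the ratios 0.197 and 0.336, the share listed again 9.45% and the median distances 11650.5 and 13770 bp. With genes widened by 10 kb the shares were 7.97% and 9.75%, the ratios 0.346 and 0.378, loops with a G4 motif 66.1% and 67.7% and loops linked to promoters 19.1% and 5.57%. With genes not widened the shares were 12.4% and 14.4%. Against all gene types they were 9.56% and 11.2% with a PET ratio of 0.359, and against protein-coding genes alone 23.0% and 26.7% with 0.324. Without chromosome 2, which holds most intergenic loops, they were 11.4% and 13.2%.

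Without anchors over 20% multi-copy, the shares were 11.1% and 13.3% and the ratios 0.346 and 0.320. Without repeat loops (over 50%), the mock share was 11.6%, the PET ratio 0.2998 and PDS loops with a G4 motif 71.9%. Without the 6 chromosomes the loop number ratio was 0.265, the PET ratio 0.252, the share listed again 7.77% and the split of shared PETs 0.451. From 20 kb upward the loop number ratio was 0.347 and the median distances 40483.25 and 41347 bp. With anchors extended by 5 kb, 26.96% of mock loops were listed again, and joining anchors within 100 kb gave 2538 clusters. Spacers of up to 12 bases put a G4 motif in 84.4% and 84.6% of loops, and counting lncRNA start sites linked 34.3% and 14.04%. The low PET counts limit single loops most: 60.6% of mock and 70.0% of PDS intergenic loops have 3 PETs.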
